A study of Sus scrofa with 4 samples.

Results

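The genes of class II antigen presentation were examined in skeletal muscle of Hampshire and Mali pigs (Sus scrofa). The set held 8 genes, chosen by name, of 29692 gene symbols in the data: the class II chains SLA-DRA, SLA-DRB1, SLA-DQA1 and SLA-DQB1, the peptide exchange chains SLA-DMA and SLA-DMB, the invariant chain CD74 and the transactivator CIITA. Muscle was taken by biopsy and its RNA sequenced, as 2 libraries from either breed. The samples carried no treatment label, and the sources used here do not give age, sex, the muscle sampled or whether each library is a separate animal. The p-values therefore describe only the spread between these libraries. Hampshire is a belted pig breed kept for meat, and Mali is an indigenous pig of north-east India. The 2 breeds were set against each other for how muscular they are, per the labels.

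Class II molecules are pairs of an alpha and a beta chain that show peptides from the endosome to CD4+ T cells. CD74 fills the peptide groove while the pair travels from the endoplasmic reticulum to the endosome, where proteases trim it and the DM pair swaps the last CD74 fragment for a peptide. CIITA is recruited to class II promoters by the RFX, NF-Y and CREB factors and sets how strongly the whole set is transcribed. Dendritic cells, B cells and macrophages make class II constitutively, interferon gamma induces it in many other cells, muscle fibres normally carry little, and in the pig capillary endothelium is known to carry it as well.

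The libraries differed in ways that touch every value. FPKM, a fragment count scaled to gene length and library size, summed to 516463 in Mali replicate 1 and to between 756253 and 988614 in the others, and mitochondrial genes took 42.5% of the sum in Hampshire replicate 1 and 17.1% to 21.3% in the others. Read counts are unknown, so the depth behind each value is unknown. The skeletal muscle gene ACTA1 was at 40576 and 46329 FPKM in Hampshire against 20637 and 25480 in Mali. CKM was at 25776 and 18456 against 12493 and 18206 FPKM, so these defining muscle markers were abundant in every library. Of 7 muscle markers tested for a breed difference, these 2 lay higher in both Hampshire libraries than in both Mali libraries. Another 1 lay lower in both, beside 13.0% and 23.6% of all tested genes in those orders. The median log2 difference of the 7 was 0.07. In these bulk samples, more cells of a type and more RNA per cell cannot be told apart.

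All 8 genes were higher in both Hampshire libraries than in both Mali libraries, and the size of the gap differed widely among them. The DQ chains stood furthest apart, with means 4.40 times (SLA-DQA1) and 3.68 times (SLA-DQB1) those of Mali. SLA-DRA followed at 2.31 times, and SLA-DMB, SLA-DRB1, SLA-DMA and CD74 lay between 1.48 and 1.90 times. CIITA was near 1 FPKM or below in every library. With limma and Benjamini-Hochberg adjustment over the 10075 genes that reached 1 FPKM in 2 or more libraries, 0 of the 7 tested members passed an adjusted p of 0.05, as did 0.00% of all tested genes. At an unadjusted p under 0.05, 3 of the 7 passed, SLA-DQA1, SLA-DQB1 and SLA-DRA, against 7.09% of all tested genes. All 7 had a positive difference, against 39.5% of all tested genes. All 7 were separated as higher in Hampshire, meaning that both Hampshire libraries lay above both Mali libraries, against 13.0% of all tested genes. The opposite order held for 23.6% of them. The members' median log2 difference was 0.80, against -0.12 over all tested genes.

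**Figure D1:**
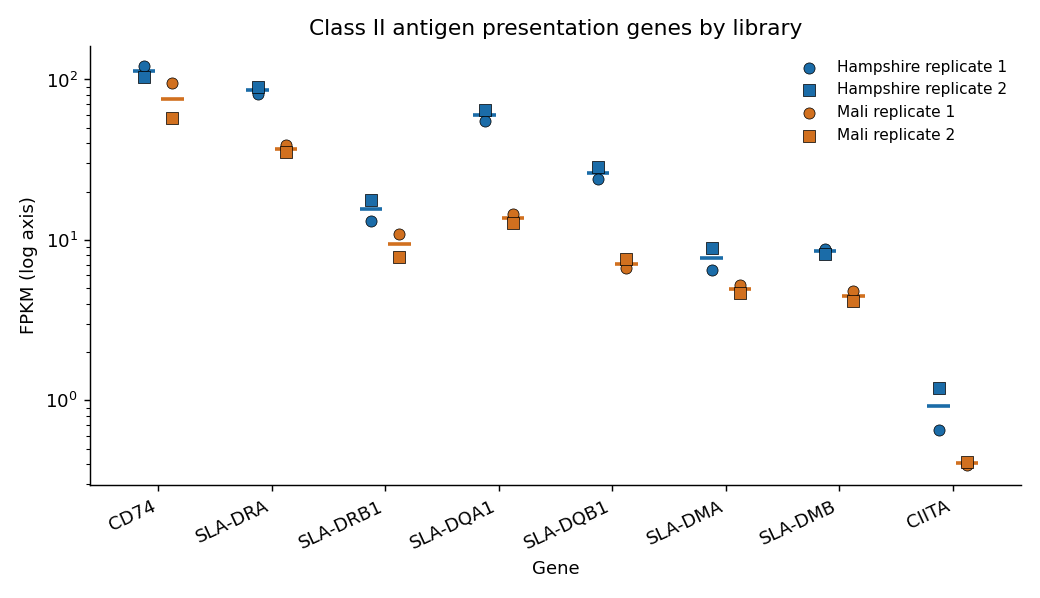
FPKM on a log axis of the 8 class II genes in each library, Hampshire in blue and Mali in orange, with circles for replicate 1, squares for replicate 2 and a line at each breed mean. The Hampshire points lie above the Mali points for every gene, with the widest gap at SLA-DQA1 (55.5 and 64.7 against 14.6 and 12.8).

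The DQ pair is one of the classical class II pairs of the pig. SLA-DQA1, its alpha chain on chromosome 7 (24953472 to 24959313, plus strand, Sscrofa11.1), was at 55.5 and 64.7 FPKM in Hampshire replicates 1 and 2 and at 14.6 and 12.8 FPKM in Mali replicates 1 and 2. The lower Hampshire library was 3.81 times the higher Mali library. The means were 60.1 ± 6.51 and 13.7 ± 1.27 FPKM (SD, n = 2 each). The log2(FPKM + 1) difference was 2.06 with a standard error of 0.42 and an unadjusted 95% interval of 1.07 to 3.04, and limma gave an adjusted p of 0.417. Of the tested genes, 0.377% had a larger difference toward Hampshire. In the authors' deposited table SLA-DQA1 had q = 0.0433, and 0.142% of the rows of that table were called at q under 0.05 as higher in Hampshire.

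SLA-DQB1, the beta chain (24969034 to 24977238, minus strand), was at 23.9 and 28.5 FPKM in Hampshire against 6.67 and 7.56 in Mali. The lower Hampshire library was 3.16 times the higher Mali library, so the breeds did not overlap. The log2 difference was 1.74 with a standard error of 0.39 (interval 0.83 to 2.65), and limma gave an adjusted p of 0.420. The authors' deposited table gave p = 0.0037 and q = 0.220 for it. The pseudogene SLA-DQB2 lies beside it and resembles it, so reads may have been divided between them and both values are uncertain. SLA-DQB2 was at 0.557 and 1.58 FPKM in Hampshire against 0.0571 and 0.302 in Mali, small beside SLA-DQB1 and higher in Hampshire too.

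The DR pair is the other classical pair, and its alpha chain was the most abundant of the DQ and DR chains in every library. SLA-DRA (24825037 to 24830650, plus strand) was at 81.3 and 89.5 FPKM in Hampshire against 38.9 and 35.1 in Mali. The lower Hampshire library was 2.09 times the higher Mali library, and the means were 85.4 ± 5.83 and 37.0 ± 2.69 FPKM (SD, n = 2 each). The log2 difference was 1.19 with a standard error of 0.45 (interval 0.13 to 2.24), and limma gave an adjusted p of 0.697.

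SLA-DRB1, the DR beta chain (24901386 to 24914016, minus strand), was at 13.1 and 17.8 FPKM in Hampshire against 11.0 and 7.87 in Mali. Hampshire replicate 1 was only 1.20 times Mali replicate 1, so the breeds barely separated. The log2 difference was 0.66 with a standard error of 0.40, an interval of -0.29 to 1.61 and an adjusted p of 0.859 in limma. The DR beta pseudogenes SLA-DRB4 and SLA-DRB5 were at 0.0427 FPKM or less in every library.

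The DM pair edits the peptide load inside the endosome and does not itself present to T cells. SLA-DMB (25119278 to 25125089, minus strand) was at 8.76 and 8.22 FPKM in Hampshire against 4.81 and 4.13 in Mali, with tight replicates in both breeds and no overlap. Its log2 difference was 0.80 with a standard error of 0.35 (interval -0.01 to 1.61; limma adjusted p = 0.722). SLA-DMA (25133494 to 25137928, minus strand) was at 6.52 and 8.89 FPKM in Hampshire against 5.23 and 4.69 in Mali, and the nearest libraries of the breeds differed by 1.25 times. Its log2 difference was 0.53 with a standard error of 0.36 (interval -0.31 to 1.38; limma adjusted p = 0.877). Both genes lie inside the annotated span of BRD2 on the opposite strand. The strand setting of the counting is not given, so reads of the 3 genes may not have been told apart. BRD2, a bromodomain protein, went the other way, at 15.3 and 25.3 FPKM in Hampshire against 23.0 and 33.9 in Mali.

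CD74, the invariant chain, was the highest of the 8 genes in every library. It lies on chromosome 2 (151402210 to 151409924, minus strand), away from the class II region. It was at 122 and 103 FPKM in Hampshire against 94.6 and 57.2 in Mali. Hampshire replicate 2 was 1.09 times Mali replicate 1, and the Mali libraries lay further from each other than that Mali library lay from either Hampshire library. The log2 difference was 0.60 with a standard error of 0.51, an interval of -0.59 to 1.79 and an adjusted p of 0.900 in limma.

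CIITA, the transactivator on chromosome 3 (32171706 to 32230775, minus strand), was at 0.653 and 1.20 FPKM in Hampshire against 0.395 and 0.415 in Mali. It reached 1 FPKM only in Hampshire replicate 2 and so was not among the tested genes. In limma without that filter its log2 difference was 0.44 with a standard error of 0.22, an interval of -0.14 to 1.02 and an adjusted p of 0.878. Its last 1.32 kb overlap DEXI on the opposite strand, and how such reads were assigned is not given, so its low value is uncertain. DEXI was at 27.0 and 21.7 FPKM in Hampshire against 23.8 and 27.4 in Mali, so the breeds overlapped there. The other 7 members were at 4.13 FPKM or more in every library, so the filter did not act on them.

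**Figure D2:**
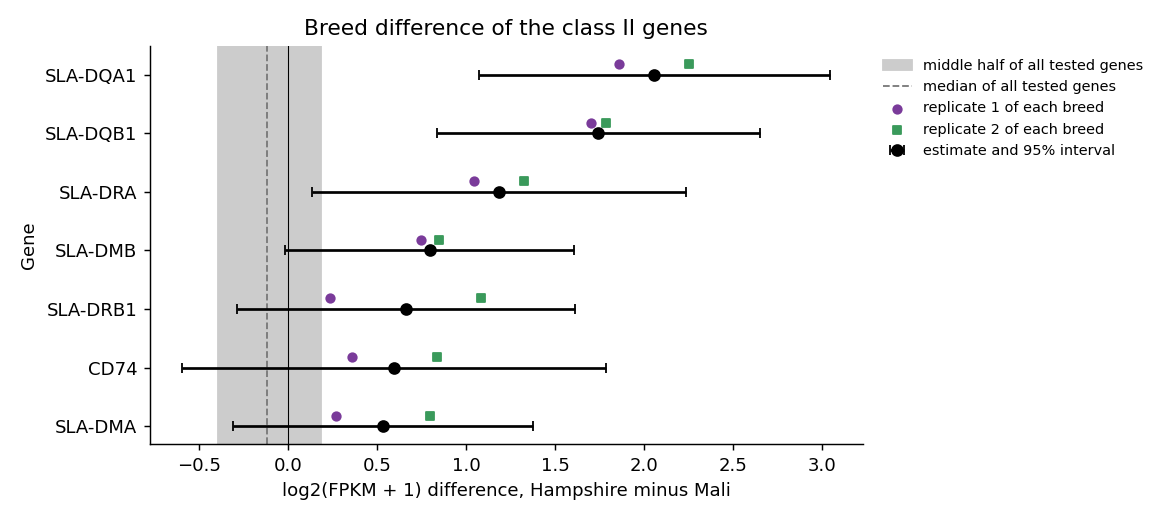
log2(FPKM + 1) difference, Hampshire minus Mali, of the 7 tested class II genes; black points and bars give the limma estimate and its unadjusted 95% interval, purple circles and green squares the difference between replicates 1 and between replicates 2, and the grey band the span from percentile 25 to percentile 75 of all tested genes. All 14 replicate differences are above 0, from 0.24 for SLA-DRB1 to 2.25 for SLA-DQA1.

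Because FPKM is scaled to length, levels can be set against each other within a library. In Hampshire the order was CD74, SLA-DRA, SLA-DQA1, SLA-DQB1, SLA-DRB1, SLA-DMB, SLA-DMA and CIITA, and in Mali the beta chains and the DM chains each changed places. The libraries of neighbours in that order overlapped for SLA-DMB and SLA-DMA, in either breed, and for no other neighbours. CD74 and SLA-DRA were above 89.7% and 84.4% of all tested genes in the library where each ranked lowest. SLA-DQA1 was above 91.2% and 93.5% of tested genes in Hampshire and above 72.7% and 68.1% in Mali.

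Ratios of genes within a library do not depend on how that library was scaled. By FPKM, the DQ chains made up a larger part of the DQ and DR sum in both Hampshire libraries. Class II genes are polymorphic and how reads unlike the reference were treated is not given, so these ratios are uncertain in that respect. SLA-DQA1 and SLA-DQB1 together made 45.7% and 46.5% of the summed FPKM of the 4 DQ and DR chains in Hampshire and 29.9% and 32.1% in Mali. The breeds did not overlap, and the libraries of a breed differed by little beside the gap between the means of 46.1% ± 0.546 and 31.0% ± 1.59 (SD, n = 2 each). SLA-DQA1 was at 0.682 and 0.723 times SLA-DRA in Hampshire and at 0.374 and 0.364 times in Mali. SLA-DQB1 was at 1.82 and 1.60 times SLA-DRB1 in Hampshire, and at 0.609 and 0.960 times in Mali, so the more abundant beta chain was DQ in one breed and DR in the other. An exact permutation test, two-sided, gave p = 0.333 for each of these 3 ratios, the smallest p this test can give with 2 libraries against 2.

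Within pairs the ratios lay closer between the breeds, yet for each pair the breeds did not overlap. The exact permutation test, two-sided, gave its smallest p of 0.333 for each. SLA-DQA1 was at 2.32 and 2.27 times SLA-DQB1 in Hampshire and at 2.18 and 1.69 times in Mali. SLA-DMA was at 0.744 and 1.08 times SLA-DMB in Hampshire and at 1.09 and 1.14 times in Mali, where Hampshire replicate 2 and Mali replicate 1 nearly met. SLA-DRA was at 6.20 and 5.02 times SLA-DRB1 in Hampshire and at 3.55 and 4.46 times in Mali.

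Beside the summed DQ and DR chains, the invariant chain was lower in both Hampshire libraries than in both Mali libraries. CD74 was at 0.700 and 0.514 times that sum in Hampshire and at 1.33 and 0.905 times in Mali. The exact permutation test, two-sided, gave its smallest p of 0.333 for this ratio. Against the single chains, SLA-DQA1 was at 0.456 and 0.628 times CD74 in Hampshire and at 0.154 and 0.223 times in Mali. SLA-DRB1 was at 0.108 and 0.173 times CD74 in Hampshire and at 0.116 and 0.137 times in Mali, so for that chain the breeds overlapped. SLA-DRA stood at 125 and 74.8 times CIITA in Hampshire and at 98.3 and 84.5 times in Mali, which overlapped too.

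**Figure D3:**
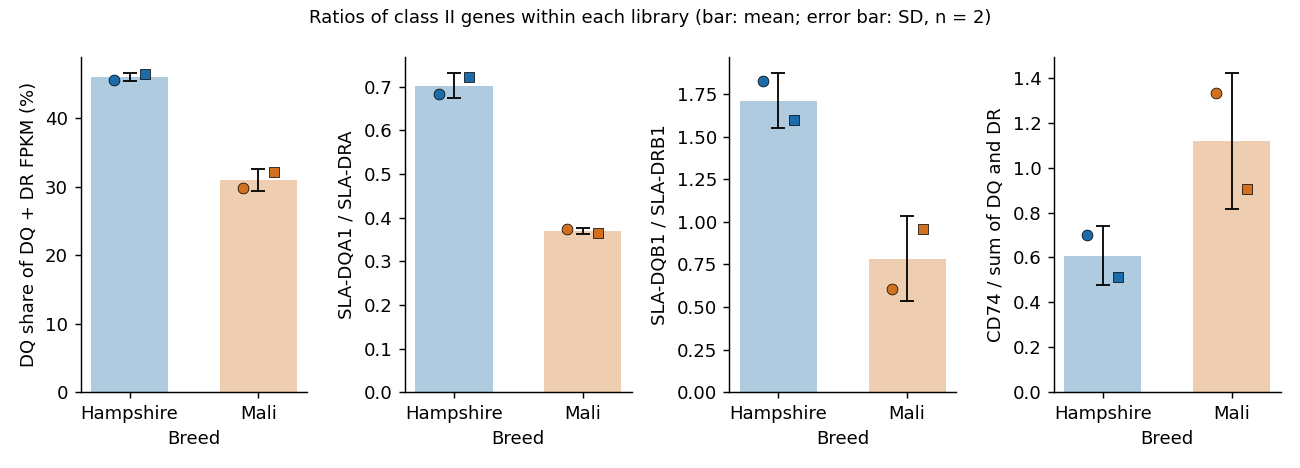
Ratios of class II genes computed within each library, from left the DQ share of the summed DQ and DR FPKM in percent, SLA-DQA1 over SLA-DRA, SLA-DQB1 over SLA-DRB1 and CD74 over the summed DQ and DR chains; bars are means, error bars SD (n = 2) and points libraries. The first 3 are higher in Hampshire and the last is lower, with no overlap between breeds.

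The 6 SLA members lie within 312.9 kb of chromosome 7, among the class I peptide loading genes and an overlapping span of BRD2. From the start of SLA-DRA to the end of SLA-DOA the data list 25 genes and pseudogenes, of which 11 were tested. Of the 5 tested genes there that are not members, 4 were separated as higher in Hampshire, against 13.0% of all tested genes. They were the peptide transporter genes TAP1 and TAP2 and the immunoproteasome genes PSMB8 and PSMB9. PSMB9 was at 8.42 and 7.62 FPKM in Hampshire against 3.07 and 3.13 in Mali, and TAP2 at 9.19 and 6.81 against 3.05 and 4.17 FPKM. These 4 genes differed by 0.84 to 1.14 on the log2 scale, close to the median of 0.99 of the 6 SLA members and below both DQ chains. Adjusted p in limma was between 0.531 and 0.753 for the 4. The DO chains, which restrain DM and are known mainly from B cells, were low, with SLA-DOA at 1.10 and 0.983 FPKM in Hampshire against 0.960 and 0.502 in Mali, and SLA-DOB at 0.370 FPKM or less in every library. SLA-DYB, a pseudogene, was listed at 0 in all 4.

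**Figure D4:**
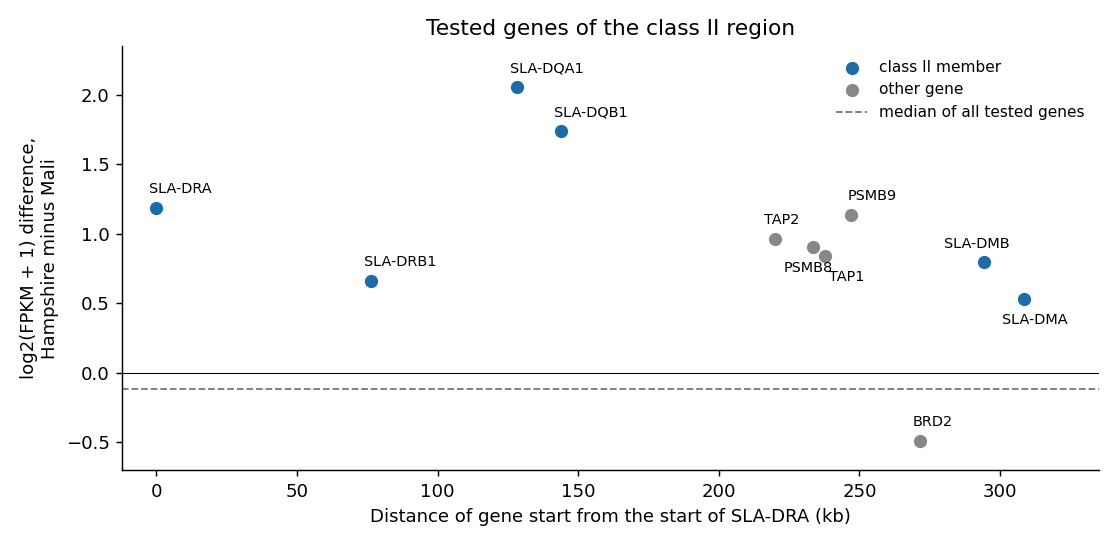
log2(FPKM + 1) difference, Hampshire minus Mali, of the 11 tested genes of the class II region against the distance of each gene's start from that of SLA-DRA in kb; blue points are members and the dashed line is the median of all tested genes. SLA-DQA1 and SLA-DQB1 are at 2.06 and 1.74, and BRD2, at -0.49, is the one gene below 0.

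The factors that assemble on class II promoters showed no shared lean toward Hampshire. Of 10 listed factors, all were tested and 0 passed in limma in either direction (0 at an unadjusted p under 0.05). 0 were separated as higher in Hampshire and 2 as lower, against 13.0% and 23.6% of all tested genes. The median log2 difference of the factors was -0.05. RFXANK was at 15.7 and 8.01 FPKM in Hampshire against 15.7 and 15.8 in Mali. It counted as lower although Hampshire replicate 1 and Mali replicate 1 were nearly level. RFXAP was at 8.36 and 9.40 against 7.95 and 13.7 FPKM, and the NF-Y subunit NFYC at 18.8 and 15.8 against 16.5 and 18.9 FPKM, so the breeds overlapped for both. The acetyltransferase gene KAT2B was at 23.9 and 27.3 FPKM in Hampshire against 28.1 and 81.0 in Mali.

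Genes of interferon gamma signalling, the main inducer of CIITA outside antigen-presenting cells, were mixed. IFNG itself was at 0.0769 FPKM or less in every library. Of 9 listed genes 7 were tested and 0 passed in limma (1 at an unadjusted p under 0.05, against 7.09% of all tested genes). Of the 7, 1 was separated as higher in Hampshire and 3 as lower, against 13.0% and 23.6% of all tested genes. The median log2 difference was -0.01. JAK1, a kinase of the receptor, was at 23.3 and 23.5 FPKM in Hampshire against 36.9 and 29.3 in Mali. The receptor chains IFNGR1 and IFNGR2 were lower in Hampshire as well, at 7.79 and 9.58 against 10.6 and 11.9 FPKM and at 10.8 and 9.81 against 11.9 and 20.3 FPKM. The gene higher in Hampshire was IRF1, a transcription factor that acts on a CIITA promoter, at 6.57 and 4.32 against 2.13 and 1.94 FPKM (limma adjusted p = 0.597); it was chosen after its values were seen.

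Genes that interferon gamma induces were higher in Hampshire for the most part. The list summed to 197 FPKM in Hampshire replicate 1, of which CXCL10 gave 144. The sums were 22.3 FPKM in Hampshire replicate 2 and 18.2 and 9.37 in Mali. CXCL9 was higher in Hampshire replicate 2, at 2.92 and 3.98 FPKM in Hampshire against 2.40 and 1.18 in Mali. Of 7 listed, 6 were tested and 0 passed in limma (3 at an unadjusted p under 0.05, against 7.09% of all tested genes). Of the 6, 5 were separated as higher, against 13.0% of all tested genes, with a median log2 difference of 1.38. GBP2 and IRF8 passed the filter on low values only through Hampshire, and without these 2 genes 3 of 4 were separated, 1 had an unadjusted p under 0.05 and the median was 1.36. The chemokine CXCL10 was at 144 and 3.77 FPKM in Hampshire against 3.70 and 1.28 in Mali, so replicate 2 of Hampshire was level with replicate 1 of Mali. The guanylate-binding proteins GBP1 and GBP2 were at 25.3 and 7.06 against 3.93 and 1.61 FPKM and at 17.8 and 2.52 against 0.696 and 0.807 FPKM. The tryptophanyl-tRNA synthetase WARS was at 6.05 and 3.68 against 6.78 and 4.19 FPKM. Of the 8 class II members 6, all but CD74 and SLA-DMB, were higher in Hampshire replicate 2. Whether interferon gamma had a part in the class II differences was not tested.

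The endosomal enzymes that cut antigens and CD74 went both ways. Of 8 listed, all were tested and 0 passed in limma (3 at an unadjusted p under 0.05, against 7.09% of all tested genes). Of the 8, 3 were separated as higher in Hampshire and 1 as lower, against 13.0% and 23.6% of all tested genes. The median log2 difference was 0.00. Cathepsin D (CTSD) was at 45.6 and 27.7 FPKM in Hampshire against 101 and 80.2 in Mali. Cathepsin B (CTSB) was at 82.2 and 66.0 against 66.4 and 119 FPKM, legumain (LGMN) at 20.6 and 18.7 against 17.4 and 21.1 FPKM, and SPPL2A, which cleaves the membrane stub of CD74, at 20.2 and 11.2 against 20.2 and 11.7 FPKM. Cathepsin S (CTSS), the main protease of CD74 in antigen-presenting cells, was at 8.15 and 4.96 FPKM in Hampshire against 2.34 and 1.75 in Mali (limma adjusted p = 0.524). IFI30, a thiol reductase of the antigen-processing compartment, was at 5.14 and 8.09 against 3.57 and 2.08 FPKM (limma adjusted p = 0.697), and both were chosen after their values were seen.

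Of the ubiquitin ligases that send class II to degradation, MARCH1 was at 0.520 and 0.472 FPKM in Hampshire against 0.164 and 0.169 in Mali, below the filter. MARCH8 was at 2.40 and 3.23 against 3.13 and 3.96 FPKM, with overlap. Of the 5 genes listed for CD74 as a receptor of the cytokine MIF, 4 were tested and 0 passed in limma. At an unadjusted p under 0.05 there were 2, against 7.09% of all tested genes, and 2 were separated as higher, against 13.0%. CXCR2 passed the filter only through Hampshire. Without it 1 of 3 was separated, 1 of 3 had an unadjusted p under 0.05 and the median log2 difference was 0.09. MIF was at 60.1 and 28.8 FPKM in Hampshire against 59.4 and 70.9 in Mali, and its homologue DDT at 23.0 and 26.0 against 16.7 and 31.2 FPKM. The chemokine receptors CXCR4 and CXCR2, which pair with CD74, were at 7.25 and 4.17 against 2.94 and 1.60 FPKM and at 1.74 and 1.33 against 0.451 and 0.511 FPKM.

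Costimulators, the second signal that antigen-presenting cells give to T cells, were listed together with the inhibitory ligand CD274, and the list was low. Of 5 listed genes 2 were tested and 0 passed in limma (0 at an unadjusted p under 0.05). Of the 2, 1 was separated as higher, against 13.0% of all tested genes, and the median log2 difference was 0.45. CD40 was at 3.89 and 1.68 FPKM in Hampshire against 4.09 and 0.259 in Mali, and ICOSLG at 1.42 and 2.43 against 1.13 and 1.26 FPKM. CD86 and CD274 were at 0.900 FPKM or less in every library.

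Class I genes present peptides to CD8+ T cells, and whether they differed less than class II was not tested. Of 11 listed, all were tested and 0 passed in limma (2 at an unadjusted p under 0.05, against 7.09% of all tested genes). As higher in Hampshire 6 were separated, against 13.0% of all tested genes, and the median log2 difference was 0.61. On the common-sum scale 3 were separated, against 5.18% of all tested genes. SLA-1 was at 65.6 and 56.0 FPKM in Hampshire against 37.0 and 35.1 in Mali, whereas SLA-2 was at 82.0 and 72.1 against 66.8 and 78.0 FPKM and overlapped. SLA-3 was at 29.7 and 44.3 against 31.1 and 26.9 FPKM, and the shared light chain B2M, summed over 2 rows, at 36.3 and 23.4 against 41.8 and 12.5 FPKM. Class I genes are close paralogs, so their single values are uncertain. The summed DQ and DR chains were at 0.666 and 0.837 times the summed class I list in Hampshire and at 0.344 and 0.359 times in Mali, again with no overlap and with the smallest exact permutation p of 0.333.

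Of the cells that carry class II, macrophages, B cells and leukocytes in general had marker sums that separated the breeds as the members did. The B cell sums were low. Of 14 macrophage markers 11 were tested, 10 with a positive difference and 7 separated as higher in Hampshire, beside 39.5% and 13.0% of all tested genes. LYZ passed the filter only through Hampshire, and without it 9 of 10 were positive, 6 were separated and the median log2 difference was 0.78. The whole list had a summed level of 79.7 and 138 FPKM in Hampshire against 53.5 and 42.2 in Mali. The complement genes C1QA and C1QB of tissue macrophages were at 13.4 and 35.4 against 10.1 and 7.27 FPKM and at 17.2 and 21.6 against 14.1 and 6.08 FPKM. C1QC was at 17.2 and 28.7 FPKM against at most 9.35 FPKM in Mali. FCER1G, a signalling chain of myeloid receptors, was at 9.16 and 11.5 against 4.76 and 5.31 FPKM. Of 8 general leukocyte markers 7 were tested, all positive and 5 separated, or 4 of 6 without ITGB2, which passed the filter only through Hampshire, with summed levels of 22.5 and 34.2 FPKM in Hampshire against 17.5 and 12.4 in Mali. The 4 with the highest means divided evenly. CORO1A was at 2.85 and 5.12 against 2.20 and 1.62 FPKM and CD53 at 4.12 and 3.80 against 2.13 and 1.30 FPKM, whereas LAPTM5 at 6.65 and 11.5 against 6.94 and 3.84 FPKM and SPI1 at 2.36 and 3.72 against 1.71 and 2.37 FPKM overlapped. On the common-sum scale 4 macrophage and 1 general leukocyte markers were separated, beside 5.18% of all tested genes, and both sums overlapped. The low B cell sum stayed separated there, at 1.36 and 2.04 in Hampshire against 1.12 and 0.615 in Mali. In none of the marker lists did a gene pass in limma. At an unadjusted p under 0.05 there were 4 of 6 fibroblast, 5 of 11 macrophage and 2 of 7 general leukocyte markers. Without LYZ and ITGB2 the macrophage count was 4 of 10 and the general leukocyte count 2 of 6. None of any other marker list passed that unadjusted p, beside 7.09% of all tested genes. Their part in the class II differences was not tested.

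Per macrophage marker the class II chains as a sum no longer separated the breeds, whereas SLA-DQA1 did. The summed DQ and DR chains were at 2.18 and 1.45 times the summed macrophage list in Hampshire and at 1.33 and 1.50 times in Mali. CD74 was at 1.53 and 0.746 times that list in Hampshire and at 1.77 and 1.36 times in Mali, so it too overlapped. SLA-DQA1 was at 0.696 and 0.468 times the list in Hampshire and at 0.272 and 0.302 times in Mali, with no overlap. Over the general leukocyte list the DQ and DR sum stayed apart, at 7.73 and 5.87 times in Hampshire and 4.07 and 5.11 in Mali. CD74 over that list overlapped, at 5.41 and 3.02 against 5.42 and 4.62 times. For the ratios of this paragraph without overlap, the exact permutation test, two-sided, gave its smallest p of 0.333.

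B cell and dendritic cell markers were low, and the dendritic and endothelial sums overlapped between the breeds. B cell markers were near 0, with 7 of 8 in the data, 0 tested and summed levels of 1.75 and 2.01 FPKM in Hampshire against 0.755 and 0.718 in Mali. Of the 4 highest, CD79B was at 0.516 and 0.327 against 0.249 and 0.151 FPKM and MS4A1, which encodes CD20, at 0.739 and 0.257 against 0.0638 and 0.0513 FPKM, while CD79A and FCRLA overlapped. Dendritic cell markers had 1 of 11 tested, CD209 at 2.39 and 12.9 against 6.63 and 2.60 FPKM, with overlap. FCER1A was at 0.826 and 1.33 against 0.612 and 0.720 FPKM, and ZBTB46 and BATF3 overlapped. The dendritic sums were 4.51 and 17.5 against 8.90 and 4.62 FPKM, FLT3 and CLEC9A were at 0.0454 FPKM or less in every library, and CLEC10A was listed at 0.

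T cells, which class II serves, had 3 of 9 markers tested and 1 separated as higher, beside 13.0% of all tested genes. Their sums were 7.38 and 6.79 FPKM in Hampshire against 5.53 and 3.38 in Mali. CD3G was at 1.65 FPKM or more in Hampshire against 1.43 and 0.627 in Mali, whereas CD2, CD3E and LCK overlapped. The coreceptor CD4, which binds class II and is also made by some myeloid cells, was at 0.756 and 0.950 against 0.130 and 0.267 FPKM, below the filter, and was chosen after its values were seen. Endothelial markers had 9 of 9 tested and 2 separated as higher, beside the same 13.0%, with sums of 58.9 and 122 against 61.7 and 72.5 FPKM. PECAM1 was at 21.2 and 39.3 against 22.8 and 22.6 FPKM, EGFL7 and CLDN5 overlapped too, and CDH5 was at 6.53 and 13.5 against 5.47 and 4.78 FPKM. Over the endothelial sum the DQ and DR chains were at 2.95 and 1.64 times in Hampshire and 1.15 and 0.872 times in Mali, with no overlap. Fibroblast markers, which do not mark class II cells, had 6 of 6 tested and 4 separated as higher, beside that 13.0%. Their median log2 difference was 2.31, above that of the members. The collagen gene COL3A1 was at 191 and 722 against 15.6 and 73.6 FPKM, COL1A2 at 57.4 and 209 against 10.5 and 26.6 FPKM and COL1A1 at 32.9 and 127 against 8.34 and 14.1 FPKM, while DCN overlapped. A part of these cells in the class II differences was not tested either.

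**Figure D5:**
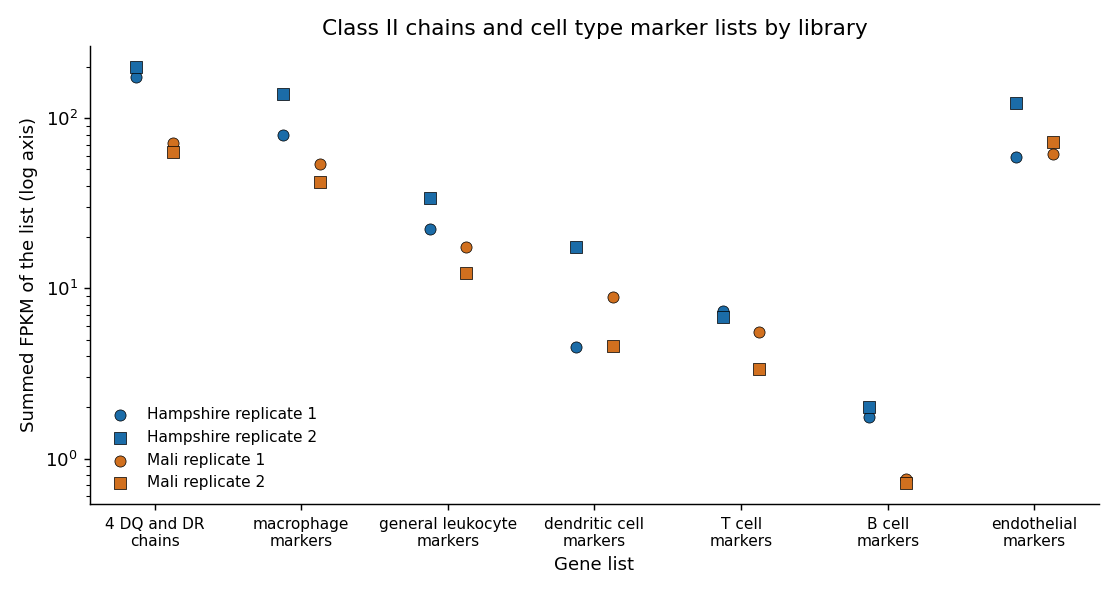
Summed FPKM on a log axis of the 4 DQ and DR chains and of the marker lists of 6 cell types in each library, Hampshire in blue and Mali in orange, circles for replicate 1 and squares for replicate 2. The DQ and DR, macrophage, leukocyte, T cell and B cell sums separate the breeds on the deposited scale, and the dendritic and endothelial sums overlap.

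The genes most like the members were sought by the root-mean-square distance over the 4 libraries between centred log2(FPKM + 1) profiles, against the mean profile of the 7 tested members. The nearest was ANXA1, an anti-inflammatory annexin, at 35.9 and 41.0 FPKM in Hampshire against 18.8 and 15.8 in Mali, at a distance of 0.0174. SLA-DRA ranked 3 of 10075 at 0.0606, while SLA-DQA1 ranked 1605 at 0.488, its difference being larger than the mean over the members. AIF1, a macrophage marker, was among the 10 nearest at 6.14 and 7.12 against 2.29 and 2.11 FPKM, as were FGL2 at 5.47 and 6.24 against 2.34 and 2.44 FPKM and SLC1A5, an amino acid transporter, at 4.33 and 5.67 against 2.11 and 1.78 FPKM. The others were TMTC4, CDON, F2R, SOX8, CDHR4 and TNFRSF19, which were under 1 FPKM in both Mali libraries and so passed the filter only through Hampshire. With 4 libraries such likeness says little beyond the breed split.

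The size of the gap depended on scaling for all 7 tested members, and the separation of the breeds for 4 of them. After rescaling every library to a common sum, which moved the median log2 difference of all genes from -0.12 to -0.40, the differences of all 7 stayed positive but shrank, to 1.72 for SLA-DQA1, 1.42 for SLA-DQB1 and 0.84 for SLA-DRA, and the breeds remained apart only for these 3. On that scale CD74 was at 94.3 and 104 in Hampshire and at 141 and 49.0 in Mali. SLA-DQA1 was at 43.0 and 65.6 against 21.6 and 10.9, and SLA-DRA at 63.0 and 90.8 against 57.7 and 30.0, where Hampshire replicate 1 lay just above Mali replicate 1. Of all tested genes 5.18% were separated as higher in Hampshire on that scale. With median-of-ratios size factors all 7 remained separated, against 16.8% of all tested genes.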

How the data were processed

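The submitters' processing notes name Cuffdiff, HISAT2, Picard and Bowtie 0.12.2 without saying what each did. For build, annotation and strand setting, nothing is given in the sources used here. FPKM per library came from a single table of 30213 rows deposited by the authors, which also holds mean FPKM per breed and p-values and q-values the authors deposited for their comparison of the breeds. Class II genes are polymorphic, and how reads unlike the reference were treated is not given. Positions are those of the table, which for the members equal RefSeq Sscrofa11.1.

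Rows of a symbol were summed (1 row for each member), 26 symbols turned into dates were restored from gene IDs and 1 row without a name was left out. Libraries were grouped by labelled breed and numbered in accession order. Genes that reached 1 FPKM in 2 or more libraries were tested as log2(FPKM + 1), which understates the change of low genes, with limma 3.58.1 in R 4.3.3 (two-sided, with a mean-variance trend and Benjamini-Hochberg adjustment). Residual degrees of freedom were 2 and prior ones 5.24. The test was checked on data simulated with no replicate effect, where the fit with a replicate block made more false calls than its threshold allows. Data with such an effect were not simulated, so the check does not cover libraries that are paired. Whole reads were not recovered, so no count test was run. Members and lists were chosen with earlier results of these data known. The rule for named genes took up to 4 genes of each list with the highest mean, since no gene passed. From these, 1 gene is not reported here, and of the muscle markers MYLPF and TNNT3 overlapped. Outside the rule the text names IFNG, markers at or near 0, genes of the class II region and genes that passed the filter only through Hampshire. It also names IRF1, CTSS, IFI30, CD4 and CXCL9, which were chosen after their values were seen. The 10 genes nearest in profile were also taken. Of the list symbols, CR2, ZAP70, CYBB and MB were not matched, and WARS1, MARCHF1 and MARCHF8 were matched by older symbols. Figures were drawn with matplotlib 3.10.9.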

Additional observations from a re-analysis of the deposited data

How the results depend on the processing

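None of the 16 other fits, among pseudocounts, filters, scalings, variance models, row choice, replicate blocks and left-out libraries, reversed the difference of any tested member; the range was 1.72 to 2.19 for SLA-DQA1, 1.42 to 1.87 for SLA-DQB1 and 0.24 to 0.96 for CD74. After rescaling to a common sum the median log2 difference of the members was 0.49. On that scale 3 of 7 were separated as higher in Hampshire, against 5.18% of all tested genes. With mitochondrial genes left out of the sum 4 were, against 9.60%. Without SLA-DMA and SLA-DMB, which was chosen after seeing the data, the median was 1.19. Leaving out 1 library gave medians of 0.71 to 0.96, 0 members called and 0 to 7 genes called in all, with 7 only without Mali replicate 2. The genes called in all were 1 among genes averaging 5 FPKM or more, and 68 and 63 with a common sum with and without mitochondrial genes, where the prior degrees of freedom were infinite. The cause of these shifts was not tested.

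No label says that the title suffix pairs the libraries. Across genes, deviations from the breed means of same-suffix libraries correlated at 0.275, a hint from 2 pairs only. With a replicate block by suffix, limma called 261 genes (2.59%) and 2 members, SLA-DQA1 (adjusted p = 0.0142) and SLA-DQB1 (0.0209). Its residual degrees of freedom were 1 and its prior ones 27.4. With the block and size factors 57 genes and neither DQ chain passed (0.0553 and 0.0598). With the block and no mean-variance trend, a fit added after seeing the data, 18 genes and neither chain passed (0.0621 and 0.0896). What limits all of these values is 2 libraries per breed of unknown depth. Medians of the lists kept their sign under the scalings, except those of the promoter factors, interferon gamma pathway, processing enzymes and muscle markers, which lay within -0.36 and 0.21 under all of them. These list values were added after seeing the data.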
